A study of Homo sapiens with 12 samples.

Results

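The genes described here are the clustered histone genes, which encode the linker histone H1 and the core histones H2A, H2B, H3 and H4. They were chosen by symbol: every row of the deposited expression table whose symbol began with HIST1H, HIST2H, HIST3H or HIST4H was taken, except 11 rows whose symbols end in PS and a number, the mark of a pseudogene copy. The rule found 39 of the 57905 genes in the table, 6 of class H1, 9 of H2A, 13 of H2B, 7 of H3 and 4 of H4. It does not remove every pseudogene. HIST3H2BA, annotated as one, and HIST2H3DP1, one by its symbol, are counted in H2B and H3. The rule uses no expression value, but it was set with earlier results of these data known.

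Messenger RNA was sequenced in PC9, HCC827 and HCC4006, 3 established human lines of non-small cell lung cancer that carry activating EGFR mutations. In each line, cells given the solvent DMSO for 24 h were compared with cells called dormant, which had been kept for 2 weeks in 100 nM osimertinib and 30 nM trametinib. Osimertinib blocks mutant EGFR, and trametinib blocks MEK, a kinase downstream of it. The series concerns the state in which such cells outlive combined EGFR and MEK inhibition. There were 2 libraries in each of the 6 groups, 12 in all, and all cells of both groups were grown in RPMI-1640 with fetal bovine serum. The drugs, the length of treatment and the dish size differed together between the groups, so their parts in a difference cannot be told apart. Nothing in the sample records says that the duplicates came from separate cultures, so the p-values measure only the spread between these libraries, which may be technical.

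Clustered histone genes lie side by side on a few chromosomes and supply histones while DNA is copied. Their usual messenger ends in a short stem loop in place of a poly(A) tail, and the stem-loop binding protein SLBP and the U7 small nuclear ribonucleoprotein cut the transcript just after it. When cells stop copying DNA these messengers are normally degraded, while histones encoded elsewhere in the genome are made throughout the cell cycle from ordinary messengers with tails. Transcripts with tails that run past the stem loop have been described for several of the clustered genes in cells that have left the cell cycle. The libraries here were made with a kit that selects tails, so a higher value can be more transcript or more transcript with a tail, and these cannot be told apart in the data. In bulk samples, fewer cells that make a messenger and less of it per cell also cannot be told apart.

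The stem loop was located in the annotated messengers to show which members have an annotated form that continues beyond it. A pattern of 16 letters, which fixed GG at the start, CC at the end and the bases TT, T and A of the loop and left the other positions free, was searched on the transcript strand of 206694 GENCODE release 29 transcripts. It was found in 2.52% of them and in at least 1 transcript of 19 of the 39 members. The sites of 6 members that rose in dormant cells and have an annotated transcript reaching at least 100 bases beyond the loop are printed below, with the stem loop in capitals and 7 transcript bases on each side.
HIST1H2AC: acccaaaGGCTCTTTTCAGAGCCcccctac
HIST3H2A: acataaaGGCTCTTTTCAGAGCCacctact
HIST2H2BE: ctccaaaGGCTCTTTTCAGAGCCacccacc
HIST1H2BC: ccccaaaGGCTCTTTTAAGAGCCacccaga
HIST1H4H: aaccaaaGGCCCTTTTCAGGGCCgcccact
HIST1H2AG: aaccaacGGCTCTTTTCAGGGCCacccacg
The same 16 letters were shared by HIST1H2AC, HIST3H2A and HIST2H2BE, and were the form found in 12 members. HIST1H2BC carried a form found in 3 members, and so did HIST1H4H, while the form in HIST1H2AG was found in that gene alone among the members. Annotated transcripts ran on for 1128 bases after the loop in HIST1H2AC, 390 in HIST3H2A, 1729 in HIST2H2BE, 116 in HIST1H2BC, 1655 in HIST1H4H and 1761 in HIST1H2AG.

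The promoters of 6 members are printed because they let a reader compare members that moved in opposite directions and members that share one stretch of DNA. Each is the 250 bases before the RefSeq transcription start on GRCh38.p14, written in the direction of the named gene. Capitals mark matches to 5 short motifs, on either strand and with overlaps allowed. The pattern TATANA stands for the box that places the transcription start, and CCAAT is bound by the factor NFY. The octamer bound by OCT1 is written ATTTGCAT, while a box known from the promoters of linker histone genes is written AAACACA. The motif of TEAD factors, the partners of YAP on DNA, is GGAATG.
HIST1H1C, chr6:26056471-26056720, minus strand: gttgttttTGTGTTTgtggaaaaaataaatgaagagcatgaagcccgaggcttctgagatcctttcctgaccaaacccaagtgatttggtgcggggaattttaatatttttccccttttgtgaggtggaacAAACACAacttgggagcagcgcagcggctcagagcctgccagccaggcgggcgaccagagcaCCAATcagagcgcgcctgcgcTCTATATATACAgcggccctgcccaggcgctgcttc
HIST1H1E, chr6:26156079-26156328, plus strand: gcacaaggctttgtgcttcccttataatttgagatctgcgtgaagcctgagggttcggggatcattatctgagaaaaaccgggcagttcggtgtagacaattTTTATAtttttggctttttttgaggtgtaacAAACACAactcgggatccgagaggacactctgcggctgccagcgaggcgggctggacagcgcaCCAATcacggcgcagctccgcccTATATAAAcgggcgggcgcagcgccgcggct
HIST2H2BE, chr1:149886683-149886932, minus strand: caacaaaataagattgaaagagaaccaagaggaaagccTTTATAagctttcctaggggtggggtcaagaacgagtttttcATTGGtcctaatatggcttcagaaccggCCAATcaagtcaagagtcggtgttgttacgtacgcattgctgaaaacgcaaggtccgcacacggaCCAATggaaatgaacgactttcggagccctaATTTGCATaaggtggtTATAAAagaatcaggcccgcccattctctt
HIST3H2A, chr1:228457874-228458123, minus strand: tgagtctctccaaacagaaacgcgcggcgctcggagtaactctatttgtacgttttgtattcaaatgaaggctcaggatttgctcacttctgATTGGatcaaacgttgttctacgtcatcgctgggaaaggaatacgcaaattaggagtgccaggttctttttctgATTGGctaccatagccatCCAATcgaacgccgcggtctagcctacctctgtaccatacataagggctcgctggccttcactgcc
HIST1H2AC, chr6:26123922-26124171, plus strand: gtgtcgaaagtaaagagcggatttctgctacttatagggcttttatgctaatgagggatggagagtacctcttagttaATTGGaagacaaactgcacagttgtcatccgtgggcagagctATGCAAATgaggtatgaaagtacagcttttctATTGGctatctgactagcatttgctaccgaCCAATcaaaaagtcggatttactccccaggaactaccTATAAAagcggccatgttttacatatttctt
HIST1H2BK, chr6:27146859-27147108, minus strand: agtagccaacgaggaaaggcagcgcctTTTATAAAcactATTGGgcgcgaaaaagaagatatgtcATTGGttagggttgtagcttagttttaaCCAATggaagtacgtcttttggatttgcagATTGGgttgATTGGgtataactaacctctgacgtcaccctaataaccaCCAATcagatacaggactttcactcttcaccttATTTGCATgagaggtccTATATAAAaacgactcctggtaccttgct
A promoter of this length was at hand for 32 members. CCAAT was found in 90.6% of them against 32.0% of all 35116 promoters in the RefSeq table, TATANA in 81.2% against 17.7%, and ATTTGCAT in 37.5% against 1.63%. GGAATG was found in 6.25% of member promoters against 11.9% of all. AAACACA was found in 18.8% of member promoters, all 6 of them H1 genes, against 4.82% of all, so HIST1H1C, which rose, and HIST1H1E, which fell, both carry it. HIST2H2BE is transcribed away from HIST2H2AC with 236 bases between their starts, so the stretch printed for HIST2H2BE covers the whole gap between them. HIST3H2A and HIST3H2BB are a like pair with 230 bases between their starts. These matches are a description of letters and say nothing about what binds there.

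A pair of libraries was singled out after the data were seen. In the second dormant HCC4006 library GAPDH, a glycolytic enzyme, was at 6.72 FPKM (fragments per kilobase of transcript, scaled to the mapped fragments of the library) against 3755 to 19645 in the other 11, mitochondrial tRNAs made up 20.0% of the summed FPKM against 0.513 to 2.66%, and a list of small RNAs without tails summed to 102.8 FPKM against 2.11 to 8.04. Its correlation with its duplicate over 14699 genes was 0.654, and that between the 2 HCC827 DMSO libraries was 0.909, while those of the other 4 groups were between 0.979 and 0.991. A correlation cannot say which of 2 duplicates departs. HCC827 DMSO 2 listed 802 of the tested genes at 0, against 566 in HCC827 DMSO 1. HCC4006 dormant 2 and HCC827 DMSO 2 are called the doubted libraries. Their part in each result was not tested, and many counts or differences are therefore given with and without them. All 7 epithelial markers examined were at 3.58 FPKM or more in every library. Markers of leucocytes, endothelium and fibroblasts reached at most 1.18 FPKM, other than an endothelial marker at 3.05 in HCC4006 dormant 2.

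Most tested H2A and H2B genes were higher in dormant cells in the mean over lines, while HIST1H4C, the gene with the highest level in DMSO cells, was lower. Averaged over the lines, 18 members rose and 6 fell among the 29 that reached 1 FPKM in at least 2 libraries and were tested, while 5 were not called. Of all 14699 genes tested, 10.9% rose and 4.55% fell by the same test. The median difference was 0.76 over the 29 members and 0.22 over all tested genes, in units of log2(FPKM + 1), dormant minus DMSO, which understates the change of low genes. A difference was called at a Benjamini-Hochberg adjusted p under 0.05 in limma, two-sided, and every adjusted p here is from that fit over all tested genes. Without HCC4006 dormant 2 and HCC827 DMSO 2, 19 members rose and 7 fell, and in that fit of 13910 genes 30.5% of all rose and 13.3% fell.

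**Figure D1:**
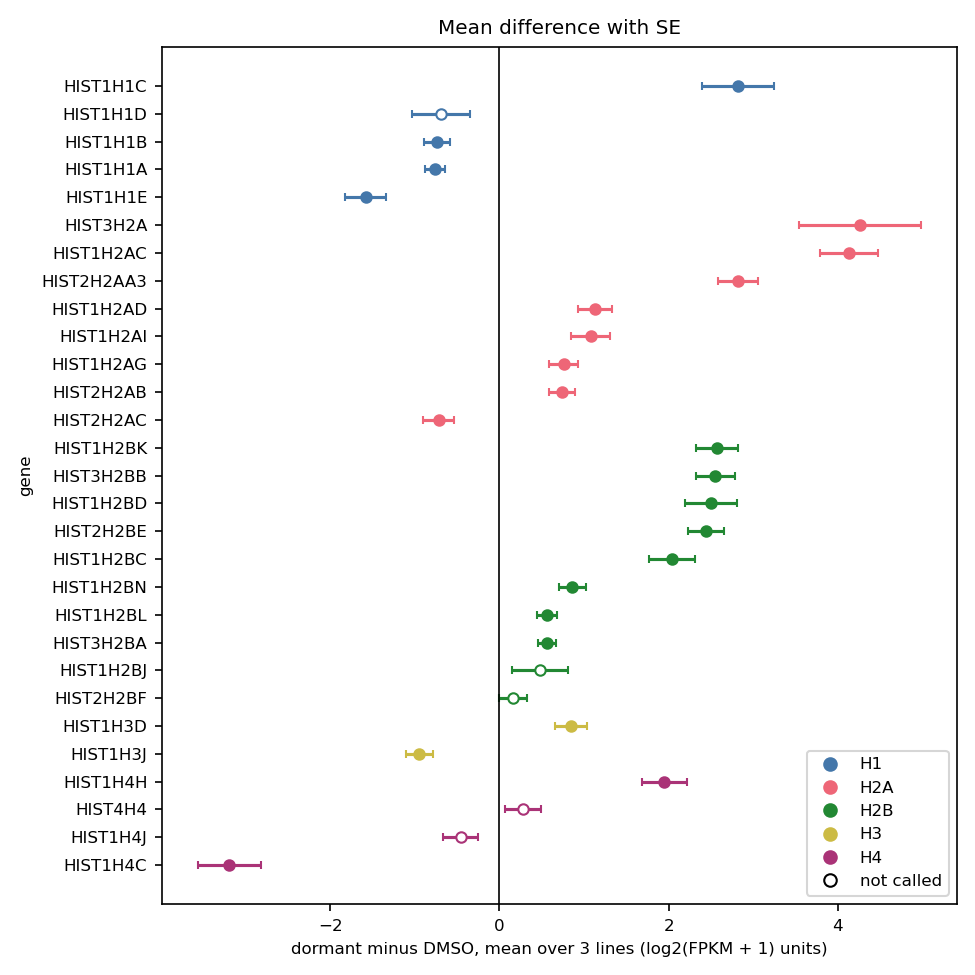
Difference between dormant and DMSO cells averaged over the 3 lines, in log2(FPKM + 1) units, for each of the 29 tested members, with bars for 1 standard error, colours for histone class, filled points for called members and open points for the 5 not called. The H2A and H2B genes lie mostly right of 0, up to 4.26 for HIST3H2A, and HIST1H4C lies farthest left at -3.19.

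By class, 7 of the 8 tested H2A genes and 8 of the 10 tested H2B genes rose. Of the 5 tested H1 genes, 1 rose and 3 fell. Of the 2 tested H3 genes 1 rose and 1 fell, and of the 4 H4 genes 1 rose and 1 fell. The class medians were 1.11 for H2A, 1.45 for H2B, -0.74 for H1, -0.05 for H3 and -0.09 for H4. In 14 of the 18 members that rose and 5 of the 6 that fell the difference had the same sign in every line.

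**Figure D2:**
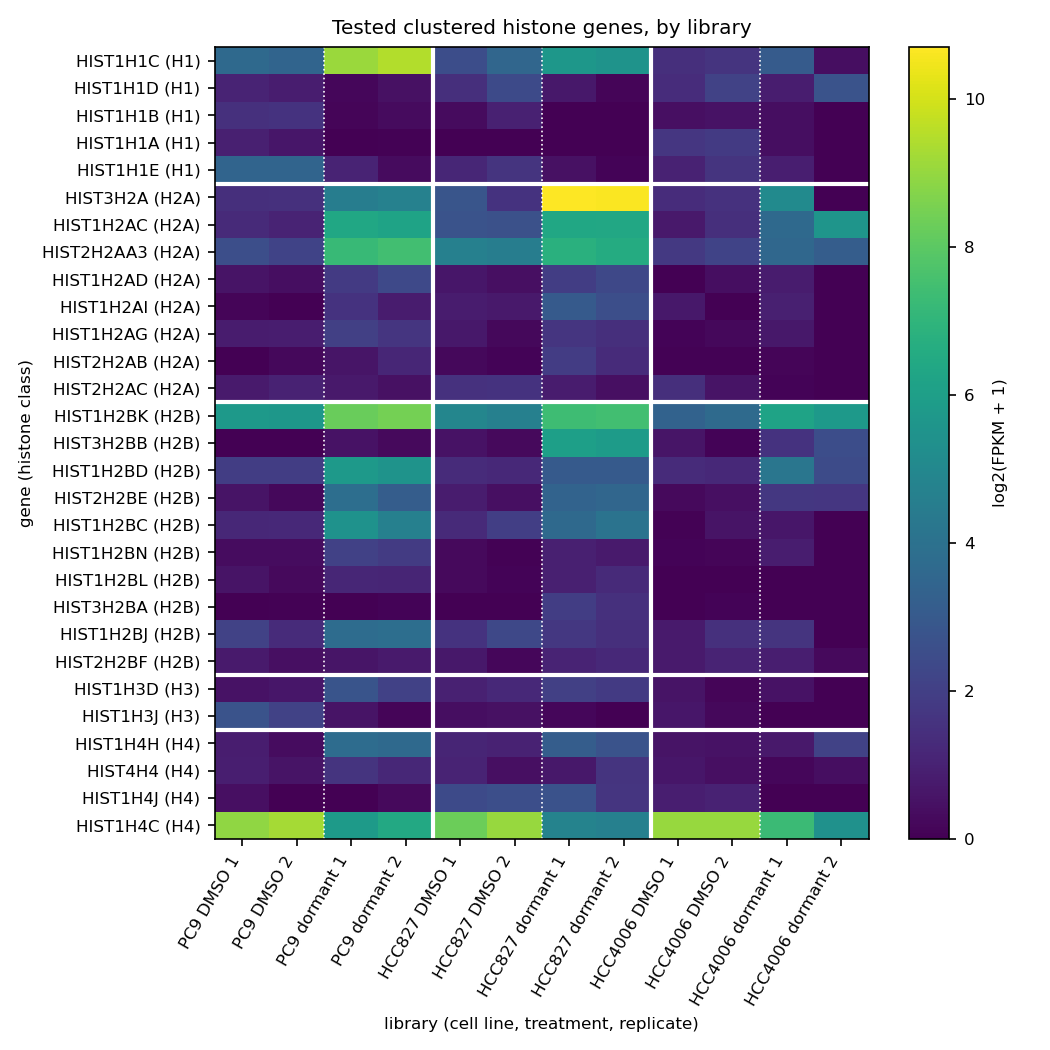
Level of each of the 29 tested members in each of the 12 libraries, as log2(FPKM + 1), with members in rows by class, libraries in columns by line and treatment, white lines between classes and between cell lines, and dotted lines between DMSO and dormant. HIST1H4C is the brightest row in the DMSO columns, and HIST1H1C in dormant PC9 and HIST3H2A in dormant HCC827 are the brightest cells among the dormant columns.

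FPKM is scaled to transcript length, so levels can be added over genes. The summed level of all members was 588 and 712 FPKM in the PC9 DMSO libraries and 1325 and 1548 in the dormant ones, a ratio of 2.21. In HCC827 it was 406 and 626 with DMSO and 2243 and 2122 in dormant cells, a ratio of 4.23. In HCC4006 the sums were 557 and 569 with DMSO and 328 and 173 in dormant cells, a ratio of 0.444. The sum was thus higher in dormant PC9 and HCC827 and lower in dormant HCC4006, with no overlap between groups in any line, and sums received no test.

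**Figure D3:**
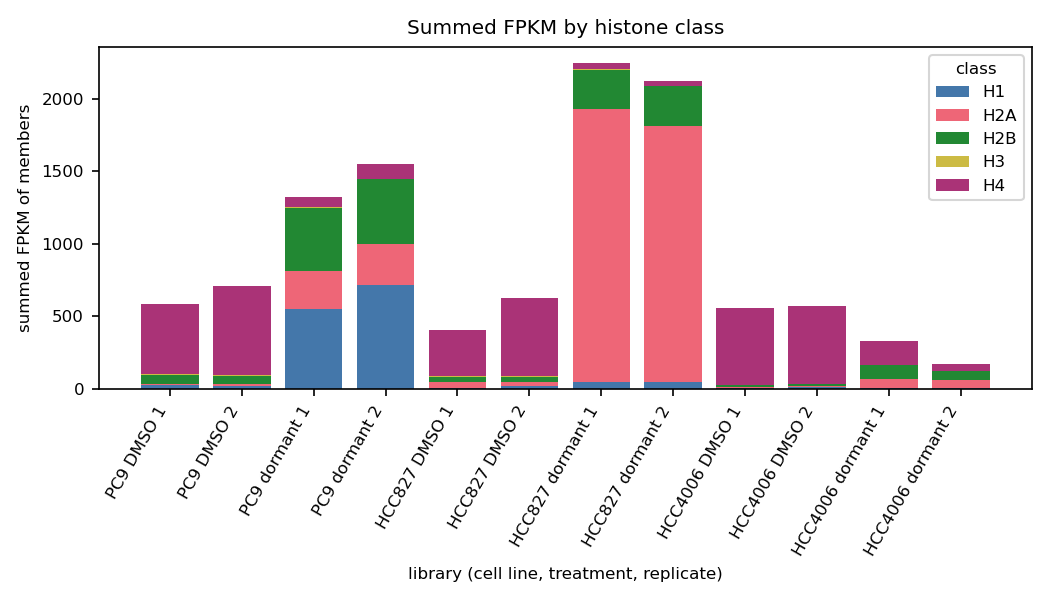
Summed FPKM of the members of each histone class in each of the 12 libraries, stacked from 0. H4 fills most of each DMSO bar, H1 with H2B fills most of the dormant PC9 bars, and H2A fills most of the dormant HCC827 bars.

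The class sums, which received no test, differed in direction, and each was carried by a few genes. The H2A sum was 28.9-fold higher in dormant than in DMSO cells in PC9 (9.42 ± 0.972 against 273 ± 15.5 FPKM, SD, n = 2 in each group), 49.8-fold higher in HCC827 and 7.49-fold higher in HCC4006. The H2B sum was 7.42-fold, 7.73-fold and 5.18-fold higher in the 3 lines. The H4 sum, mostly HIST1H4C, was 6.43-fold, 11.5-fold and 5.17-fold lower, and 3.32-fold lower in HCC4006 without HCC4006 dormant 2. The H1 sum, nearly all HIST1H1C in dormant PC9 and HCC827, was 26.0-fold higher in dormant PC9 and 3.67-fold higher in dormant HCC827 (5.88-fold without HCC827 DMSO 2), and the groups overlapped in HCC4006. Single genes did not follow these sums in every line: in HCC4006 alone, 1 of 8 tested H2A and 2 of 10 tested H2B genes rose. Of all tested genes, 4.88% rose in HCC4006. The median differences there were 0.20 for the tested H2A genes, 0.16 for the tested H2B genes and 0.15 for all tested genes. The summed FPKM of the 7 H3 members was low throughout, at 5.62 ± 1.68 (SD, n = 2) in the group with the highest sum, PC9 DMSO. The libraries select messengers with tails, so this sum does not measure H3 messengers without them.

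H4 was carried by HIST1H4C, the most abundant member in all 6 DMSO libraries. HIST1H4C was at 481 and 618 FPKM in PC9 with DMSO and at 56.1 and 87.0 in dormant PC9. In HCC827 it was at 312 and 534 with DMSO and 26.7 and 24.2 in dormant cells, and in HCC4006 at 526 and 530 with DMSO and 159 and 41.9 in dormant cells. Every dormant library lay below every DMSO library, whatever the line. Dormant levels were 7.68-fold lower in PC9, 16.6-fold lower in HCC827 and 5.26-fold lower in HCC4006 (3.32-fold without HCC4006 dormant 2), and the mean difference was -3.19 ± 0.37 (SE, adjusted p = 0.000783). Without the doubted libraries the mean difference was -2.75 (adjusted p = 1.13e-06). HIST1H4C made up 76.9 to 94.3% of the members' summed FPKM in the DMSO libraries, 4.23 and 5.62% in dormant PC9, 1.19 and 1.14% in dormant HCC827 and 48.4 and 24.2% in dormant HCC4006.

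Of the other H4 genes, which encode the same histone, 1 rose and 2 were not called. HIST1H4H was at 0.810 and 0.280 FPKM in PC9 with DMSO and 12.9 and 11.8 in dormant PC9. It was at 1.17 and 1.04 against 7.87 and 5.62 in HCC827 and at 0.495 and 0.455 against 0.660 and 3.32 in HCC4006. HIST1H4H rose by 1.95 ± 0.27 (SE, adjusted p = 0.00163) in the mean, with no overlap between groups in any line. Its ratio in HCC4006 was 4.18, and 1.39 without HCC4006 dormant 2. HIST1H4J (-0.46 ± 0.21, adjusted p = 0.152) and HIST4H4 (0.28 ± 0.21, adjusted p = 0.375) were not called, and neither passed 5.50 FPKM in any library. HIST1H4J was listed at 0 in both dormant HCC4006 libraries and was at 0.885 and 1.045 FPKM in HCC4006 with DMSO (-0.97 ± 0.36, adjusted p = 0.114).

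Among the linker histones, which bind DNA where it enters and leaves the nucleosome, HIST1H1C rose while HIST1H1A, HIST1H1B and HIST1H1E fell. HIST1H1C was at 11.8 and 9.78 FPKM in PC9 with DMSO and 548 and 713 in dormant PC9, a 58.5-fold difference. In HCC827 it was at 4.84 and 10.7 with DMSO and 50.0 and 44.3 in dormant cells, 6.08-fold higher and 9.75-fold without HCC827 DMSO 2. In HCC4006 it was at 1.75 and 2.08 with DMSO and 7.40 and 0.325 in dormant cells, where the groups overlapped through the second dormant library. The mean difference was 2.82 ± 0.43 (SE, adjusted p = 0.00287), and 3.44 (adjusted p = 2.83e-07) without the doubted libraries. Its level made up 43.9% of the members' mean sum in dormant PC9, the largest share of any member there.

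HIST1H1E was at 10.1 and 9.88 FPKM in PC9 with DMSO and 1.07 and 0.260 in dormant PC9. It was at 1.25 and 2.07 against 0.380 and 0.0850 in HCC827, and at 1.03 and 2.06 against 0.865 and 0 in HCC4006. All dormant libraries lay below the DMSO libraries of their own line, and HIST1H1E fell by 1.58 ± 0.24 (SE, adjusted p = 0.00268) on the log2 scale in the mean. HIST1H1A (-0.76 ± 0.12, adjusted p = 0.00297) and HIST1H1B (-0.74 ± 0.15, adjusted p = 0.00949) also fell, from at most 2.48 FPKM in any library. HIST1H1A was listed at 0 in all 4 HCC827 libraries. HIST1H1D (-0.69 ± 0.34, adjusted p = 0.188) was not called with all libraries and had an adjusted p of 0.00479 without the doubted ones, where its difference was -0.84. Its highest value, 5.67 FPKM, was in HCC4006 dormant 2.

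HIST1H2AC was called in each of the 3 lines, the 1 H2A gene of which this holds. It was at 1.41 and 1.11 FPKM in PC9 with DMSO and 83.4 and 74.1 in dormant PC9, and at 5.67 and 5.28 against 82.3 and 83.7 in HCC827. In HCC4006 it was at 0.675 and 1.71 against 11.7 and 47.4. The 4 dormant libraries of PC9 and HCC827 lay between 74.1 and 83.7 FPKM, and the lowest dormant library of all was above the highest DMSO library. HIST1H2AC rose by 4.13 ± 0.34 (SE, adjusted p = 0.000206) in the mean, and was 62.5-fold, 15.2-fold and 24.8-fold higher in PC9, HCC827 and HCC4006. The HCC4006 ratio was 9.81 without HCC4006 dormant 2. The F test between lines gave an adjusted p of 0.484, and 0.0102 without the doubted libraries.

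HIST3H2A, an H2A gene of the small cluster on chromosome 1, had the largest mean difference of any member, 4.26 ± 0.72 (SE, adjusted p = 0.0045). In HCC827 it was at 6.08 and 1.95 FPKM with DMSO and 1672 and 1578 in dormant cells, which is 405-fold higher (267-fold without HCC827 DMSO 2) and 74.4% of the members' mean sum. In PC9 it was at 1.74 and 1.79 against 22.4 and 24.8, and in HCC4006 at 1.54 and 1.85 against 34.1 and 0. The dormant groups lay above DMSO in PC9 and HCC827 and spread over the DMSO values in HCC4006. Within lines it passed the test in HCC827 (adjusted p = 0.00618) but not in PC9 (3.15 ± 1.25, adjusted p = 0.317), and in HCC4006 the difference was 1.14 ± 1.25 (adjusted p = 0.559). Without HCC4006 dormant 2 and HCC827 DMSO 2 the HCC4006 difference was 3.71, and its dormant side then rests on HCC4006 dormant 1 alone.

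HIST3H2BB, the H2B gene read in the opposite direction from the same promoter stretch as HIST3H2A, was listed at 0 in both PC9 DMSO libraries and at 0.430 and 0.210 FPKM in dormant PC9. In HCC827 it was at 0.420 and 0.215 with DMSO and 65.6 and 57.4 in dormant cells, 194-fold higher, and in HCC4006 at 0.540 and 0.0600 against 1.97 and 4.73. HIST3H2BB rose by 2.55 ± 0.23 (SE, adjusted p = 0.000212) in the mean. Both genes of this pair were thus at their highest in dormant HCC827, and HIST3H2BA, an H2B row of the same cluster that is annotated as a pseudogene, was at 2.83 and 1.79 FPKM there and at most 0.0800 elsewhere. HIST3H2BA rose by 0.56 ± 0.11 (adjusted p = 0.00865).

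**Figure D4:**
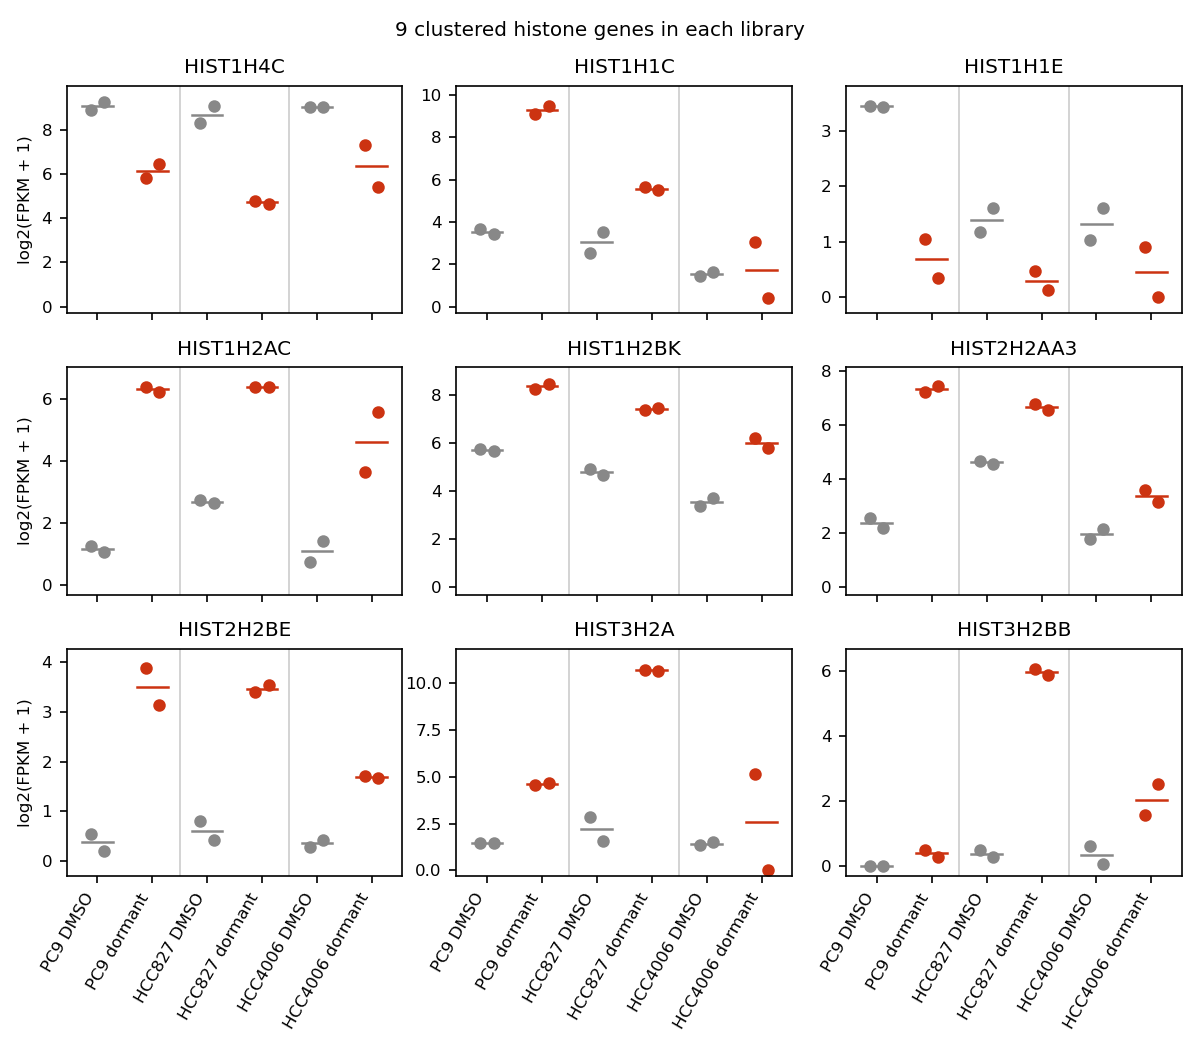
Level of 9 members, as log2(FPKM + 1), in each library (points) with the mean of each group (line), DMSO in grey and dormant in red, with a separate vertical scale in each panel. HIST1H4C and HIST1H1E are lower in dormant cells of each line, HIST1H2AC, HIST1H2BK, HIST2H2AA3, HIST2H2BE and HIST3H2BB are higher in each line, and HIST1H1C and HIST3H2A are higher in PC9 and HCC827 and have 1 low point in dormant HCC4006.

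HIST2H2AA3, from the second cluster on chromosome 1, was at 4.89 and 3.48 FPKM in PC9 with DMSO and 147 and 176 in dormant PC9. It was at 24.7 and 22.4 against 109.7 and 94.3 in HCC827 and at 2.42 and 3.42 against 10.9 and 7.92 in HCC4006. The groups did not overlap in any line, and the ratios were 38.6, 4.33 and 3.23. HIST2H2AA3 rose by 2.82 ± 0.24 (SE, adjusted p = 0.000206). Its value is uncertain as a measure of 1 gene, because the genome holds a near-identical copy beside it and the authors' treatment of shared reads is not given in the sources used here.

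Smaller rises were called for 4 further H2A genes. HIST1H2AD rose by 1.13 ± 0.20, HIST1H2AI by 1.08 ± 0.23, HIST1H2AG by 0.76 ± 0.17 and HIST2H2AB by 0.74 ± 0.15, with adjusted p-values of 0.00546, 0.0134, 0.0173 and 0.0106. None of these passed 7.21 FPKM in any library, and HIST1H2AI and HIST2H2AB had their highest values in dormant HCC827. HIST2H2AC was the 1 H2A gene that fell, by 0.72 ± 0.18 (adjusted p = 0.027), from 0.710 and 1.06 to 0.655 and 0.395 FPKM in PC9, from 1.89 and 1.93 to 0.780 and 0.350 in HCC827 and from 1.75 and 0.470 to 0.0700 and 0 in HCC4006. Its call was lost in 8 of the 12 fits that left out 1 library, those without any of the PC9 libraries, HCC827 DMSO 2, either dormant HCC827 library or HCC4006 DMSO 1, and its adjusted p was at most 0.096, without HCC827 dormant 2.

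HIST2H2BE, which shares its promoter stretch with HIST2H2AC, moved the other way. HIST2H2BE was at 0.460 and 0.160 FPKM in PC9 with DMSO and 13.7 and 7.83 in dormant PC9. It was at 0.755 and 0.340 against 9.55 and 10.6 in HCC827, and at 0.225 and 0.345 against 2.29 and 2.195 in HCC4006. Dormant values were above DMSO values in every line, 34.8-fold, 18.4-fold and 7.87-fold by group means, and HIST2H2BE rose by 2.44 ± 0.21 (SE, adjusted p = 0.000206). Head-to-head pairs were sought only among the 32 members with a promoter at hand, so pairs of other members, such as HIST1H2BC, could not be found. Of the 4 tested pairs found, both genes rose in HIST3H2A with HIST3H2BB and in HIST1H2BL with HIST1H2AI. In HIST2H2BE with HIST2H2AC 1 rose while the other fell, and HIST1H2AG rose while HIST1H2BJ was not called.

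HIST1H2BK was the most abundant H2B gene in every group, dormant and DMSO. It was at 52.5 and 50.2 FPKM in PC9 with DMSO and 307 and 352 in dormant PC9. It was at 29.5 and 24.2 against 165 and 174 in HCC827, and at 9.39 and 12.03 against 72.4 and 54.1 in HCC4006. The ratios were 6.41, 6.31 and 5.91, and HIST1H2BK rose by 2.57 ± 0.25 (SE, adjusted p = 0.000298) in the mean. The test that its differences are equal in the 3 lines gave an adjusted p of 0.962, which does not show that they are.

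HIST1H2BD was at 2.90 and 2.88 FPKM in PC9 with DMSO and 54.7 and 44.9 in dormant PC9. It was at 1.51 and 1.32 against 7.20 and 7.17 in HCC827 and at 1.495 and 1.385 against 17.3 and 4.44 in HCC4006. All dormant libraries were above all DMSO libraries, and HIST1H2BD rose by 2.5 ± 0.31 (SE, adjusted p = 0.000967). HIST1H2BC was at 1.31 and 1.32 against 43.5 and 24.2 in PC9, at 1.40 and 2.96 against 11.6 and 15.9 in HCC827, and at 0.0450 and 0.460 against 0.590 and 0 in HCC4006. HIST1H2BC was thus higher in dormant PC9 and HCC827 and overlapped in HCC4006, and it rose by 2.04 ± 0.27 (SE, adjusted p = 0.00123) in the mean. HIST1H2BN (0.86 ± 0.16) and HIST1H2BL (0.56 ± 0.12) rose from low levels, reaching at most 3.17 FPKM. HIST1H2BJ (0.48 ± 0.33, adjusted p = 0.34) and HIST2H2BF (0.16 ± 0.17, adjusted p = 0.531) were not called, although HIST1H2BJ was at 3.30 and 1.5 against 12.8 and 13.5 FPKM in PC9.

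Only 2 of the 7 H3 members were tested, and they moved apart. HIST1H3D rose by 0.85 ± 0.19 (SE, adjusted p = 0.0179), from 0.450 and 0.570 to 5.78 and 3.14 FPKM in PC9, from 0.985 and 1.33 to 3.11 and 2.52 in HCC827, and with overlapping groups in HCC4006. In RefSeq its promoter window is the same as that of HIST1H2AD, so reads of these overlapping transcripts may not be separable and its value is uncertain. HIST1H3J fell by 0.95 ± 0.16 (SE, adjusted p = 0.00415), from 5.74 and 3.35 to 0.470 and 0.110 FPKM in PC9, from at most 0.395 in HCC827 and from at most 0.545 in HCC4006. HIST2H3A and HIST2H3C, which have the same values in all 12 libraries, HIST2H3D and HIST2H3DP1 stayed below the filter.

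The 10 members below the filter reached at most 1.04 FPKM in any library. Among them were HIST1H1T, HIST1H2AA, HIST1H2BA and HIST3H3, which are known for expression in the male germ line, and HIST1H2BA was listed at 0 in all 12 libraries. The rest were HIST2H2BA, HIST2H2BB, HIST2H3A, HIST2H3C, HIST2H3D and HIST2H3DP1.

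Within PC9, 11 members rose and 4 fell, against 1.82% and 0.891% of all tested genes. Within HCC827, 12 rose and 1 fell, against 3.06% and 1.44%, and within HCC4006, 3 rose and 2 fell, against 4.88% and 1.18%. HIST1H2AC and HIST1H2BK rose and HIST1H4C fell in every line taken alone, and these 3 were the only members called in all lines. Without the doubted libraries 17 members rose and 5 fell in PC9, against 14.3% and 9.39% of all genes in that fit. In HCC827 the counts were 16 and 1, against 12% and 6.9%, and in HCC4006 they were 9 and 2, against 14.5% and 3.92%, where the remaining dormant library is assumed to vary like those of other groups. The 9 that then rose in HCC4006 included HIST1H1C (1.53, adjusted p = 0.00584), HIST2H2AA3 (1.62, adjusted p = 0.00585) and HIST1H2BD (2.91, adjusted p = 0.000133). The count of members that rose in HCC4006 was 0 without HCC4006 DMSO 1, where 6 had an unadjusted p under 0.05 in limma, 1 without HCC4006 DMSO 2, 7 without HCC4006 dormant 1 and 6 without HCC4006 dormant 2.

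By the order of values alone, 7 members were higher in both dormant libraries than in both DMSO libraries in each of the 3 lines, and 5 were lower. The 7 were HIST1H2AC, HIST1H2BD, HIST1H2BK, HIST1H4H, HIST2H2AA3, HIST2H2BE and HIST3H2BB, and the 5 were HIST1H1B, HIST1H1E, HIST1H3J, HIST1H4C and HIST2H2AC. Of all tested genes, 9.12% were higher in this way and 4.43% lower.

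The size of the change differed between lines in 4 members by the moderated F test, against 1.48% of all tested genes. HIST3H2BB differed by 5.57 ± 0.39 (SE) in HCC827, 1.69 ± 0.39 in HCC4006 and 0.40 ± 0.39 in PC9 (F test adjusted p = 0.0035). HIST3H2BA differed by 1.71 ± 0.19 in HCC827 and by 0.02 and -0.05 in PC9 and HCC4006 (adjusted p = 0.0149). HIST2H2AA3 and HIST1H2BC differed most in PC9, by 4.98 ± 0.42 and 3.85 ± 0.46, against 2.07 and 2.24 in HCC827 and 1.41 and 0.03 in HCC4006 (adjusted p = 0.031 and 0.0445). HIST1H1C spanned 5.74 ± 0.75 in PC9 to 0.19 ± 0.75 in HCC4006 and HIST3H2A spanned 8.47 ± 1.25 in HCC827 to 1.14 ± 1.25 in HCC4006, and neither passed this test (adjusted p = 0.0749 and 0.163). Without HCC827 DMSO 2 and HCC4006 dormant 2 both did, with adjusted p-values of 0.00028 and 9.34e-05, and 14 members passed in all, against 8.77% of all genes in that fit.

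Position of the stem loop was set beside these calls. Among all 29 tested members 18 rose and 6 fell in the mean, and of all tested genes 10.9% rose and 4.55% fell. Of the 12 members with an annotated transcript that continues at least 100 bases beyond the loop, 10 were tested and 8 rose, and HIST2H2BF and HIST4H4 were not called. In 7 others every annotated transcript that holds the loop ends nearer to it. Of these 7, 6 were tested and 5 rose, and HIST1H4J was not called. HIST1H2BD, of the 5 that rose, also has an annotated transcript of 789 bases without the loop. No match was found in the annotated transcripts of the other 20, of which 13 were tested, 5 rose and 6 fell. All 6 members that fell, HIST1H4C among them, are in this last group, in which a missing match says only that these letters are not in the annotated sequence. The limit of 100 bases was chosen after the values were seen.

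Genes that switch on histone genes and process their messengers were read from the same fit. Of 39 genes listed, 34 were tested, of which 1 rose and 2 fell in the mean over lines, with a median difference of -0.16. Over all tested genes 10.9% rose and 4.55% fell, and the median difference was 0.22. SNRPF, a protein of the ring shared by the U7 and spliceosomal particles, fell by 1.79 ± 0.30 (adjusted p = 0.00459). CCNE2, a cyclin that activates the kinase acting on NPAT, fell by 1.43 ± 0.29 (adjusted p = 0.0112), and HINFP, a factor of H4 gene promoters, rose by 1.04 ± 0.30 (adjusted p = 0.0457) and kept its call in 3 of the 12 fits that left out 1 library. SLBP, NPAT, the coactivator of histone genes, and CASP8AP2, its partner at histone genes, were not called, with differences of -0.10 ± 0.40, 0.29 ± 0.39 and 0.23 ± 0.33 (adjusted p = 0.881, 0.637 and 0.659). E2F1, a transcription factor of S phase genes, and LSM11, a U7 protein, were below the filter. Without the doubted libraries 3 rose and 12 fell, in the fit in which 30.5% of all genes rose and 13.3% fell. HCC4006 dormant 2 held the highest SLBP, NPAT and CASP8AP2 values, 69.05, 11.04 and 19.91 FPKM.

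Histone chaperones, which carry histones and place them on DNA, had a median difference of -0.35. Of 26 tested, 1 rose and 4 fell, against 10.9% and 4.55% of all tested genes. HJURP, the chaperone of centromeric H3, fell by 2.30 ± 0.36 (adjusted p = 0.00322), and ASF1B, a chaperone of H3 with H4, by 2.2 ± 0.37 (adjusted p = 0.00437). NPM1, a nucleolar chaperone, fell by 1.47 ± 0.26 (adjusted p = 0.00572) and CHAF1B, a subunit of chromatin assembly factor 1, by 1.16 ± 0.28 (adjusted p = 0.0217). The call of CHAF1B held in 4 of the 12 fits that left out 1 library. In the fit without the doubted libraries the median difference of the chaperones was -0.57.

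Replacement histones, encoded outside the clusters, were the genes most like the members in product. Of 11 tested, 0 rose and 3 fell, against 10.9% and 4.55% of all tested genes, and the median difference was -0.38. H2AFZ, which encodes the variant H2A.Z, was at 886 to 3133 FPKM in the DMSO libraries and 175 to 794 in the dormant ones, and fell by 2.53 ± 0.27 (adjusted p = 0.000477). CENPA, the centromeric H3, fell by 1.23 ± 0.18 (adjusted p = 0.00237). H2AFX, the variant phosphorylated at DNA breaks, fell by 0.83 ± 0.22 (adjusted p = 0.0311) and kept its call in 3 of 12 such fits. H1F0, the linker histone of resting cells, was at -0.01 ± 0.26 (adjusted p = 0.979). In the fit without the doubted libraries the median difference of the replacement histones was -0.53, and that of all genes tested there was 0.21.

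Genes of S phase, when clustered histones are normally made, were lower, with a median difference of -1.67. Of 24 tested, 19 fell, against 4.55% of all tested genes. RRM2, a subunit of ribonucleotide reductase, fell by 4.36 ± 0.61 (adjusted p = 0.0019), and TK1, thymidine kinase, by 3.48 ± 0.63 (adjusted p = 0.00632). GINS2, of the replicative helicase, fell by 3.05 ± 0.37 (adjusted p = 0.000932) and CDC6, which loads it, by 2.31 ± 0.33 (adjusted p = 0.00212). MKI67, a marker of cycling cells, fell by 1.71 ± 0.23 (adjusted p = 0.00139), from 4.37 to 15.6 FPKM across DMSO libraries to 0.0150 to 5.54 across dormant ones. HIST1H4C and the tested H1 genes other than HIST1H1C and HIST1H1D thus fell beside these genes, and 18 members rose beside them. In the fit without the doubted libraries all 24 S phase genes fell, against 13.3% of all genes.

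Of the 24 members called in the mean, 14 were called in each of the 12 fits that left out 1 library, namely the 12 with the largest differences, HIST1H2AD and HIST2H2AB. A further 5, HIST1H1A, HIST1H1B, HIST1H2BN, HIST3H2BA and HIST1H3J, were called in each of the 10 fits in which they passed the filter. The call was lost for HIST1H2AG without PC9 DMSO 1, PC9 DMSO 2, PC9 dormant 1, HCC827 dormant 1 or HCC4006 DMSO 1, with adjusted p-values up to 0.0637. It was lost for HIST1H3D without any of the first 4 of these libraries or HCC4006 DMSO 2, with adjusted p-values up to 0.0714, and for HIST1H2AI (0.0542) and HIST1H2BL (0.0594) in 1 each, without PC9 DMSO 2.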

How the data were processed

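Polyadenylated RNA from 12 libraries of 3 cell lines was measured with the TruSeq Stranded mRNA kit, per the labels' protocols. The authors deposited FPKM values, 2 columns for each library, rounded to 0.01, and what each of the 2 columns holds is not stated; both were averaged. Per the submitters' processing notes, the builds hg19 and GRCh37 and the tools Cufflinks 2.2.1, DESeq2 1.10.1 and STAR 2.5.1b were used, in roles and an order not given in the sources used here. FPKM is not a count, so depth is unknown and its limit on low members cannot be given. Summed FPKM was between 793883 and 1159352 per library. No coordinates of the deposited genes are printed, because the sequence tables used here have another build.

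Genes at 1 FPKM or more in at least 2 of the 12 libraries were kept, which left 14699. On log2(FPKM + 1), limma 3.58.1 in R 4.3.3 fitted 1 coefficient per group with 6 residual degrees of freedom and a trended prior of 3.84, was tested on simulated data, and gave each line's difference, their mean and an F test between lines, two-sided. Named genes were members called in any comparison, members at 10 FPKM or more in a group mean, members of classes with few expressed genes and, of each list, the 4 called genes with the largest differences with fixed regulators and controls. Members with the 12 largest differences have every library's value printed. Members, lists and tests were chosen with earlier results of these data known. Of the listed genes, TUT7, TUT4, ARS2 and SPT2 were not matched by symbol, and MCM2 is in 2 of the 4 lists. Promoters come from RefSeq GRCh38.p14, where 38 members matched by symbol, and transcripts from GENCODE release 29. The deviations of same-numbered libraries correlated above 0.1 in HCC4006 only, not in all 3 lines, so the main fit has no replicate term. This does not show that those libraries share no batch. Alternatives changed the pseudocount, filter, scaling, columns, replicate term and libraries.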

Additional observations from a re-analysis of the deposited data

Results flagged for a closer look

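The change between DMSO and dormant cells differed between cell lines for 4 members by limma's F test across all genes, out of 29 tested. HIST3H2BB (adjusted p = 0.0035) and HIST3H2BA (adjusted p = 0.0149) had their largest differences in HCC827, and HIST2H2AA3 (adjusted p = 0.031) and HIST1H2BC (adjusted p = 0.0445) had theirs in PC9. Without HCC827 DMSO 2 and HCC4006 dormant 2 the adjusted p-values of these 4 were 0.000149, 0.00611, 0.000836 and 0.00553.

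HIST4H4 was not called in any line, but the order of its values was opposite in different lines. Both dormant PC9 libraries (2.10 and 1.30 FPKM) lay above the PC9 DMSO libraries (0.850 and 0.500), and both dormant HCC4006 libraries (0.145 and 0.330) lay below the HCC4006 DMSO libraries (0.585 and 0.345). The differences spanned 0.92 on the log2(FPKM + 1) scale, and limma's F test did not show that they differ (adjusted p = 0.504).

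HIST1H3PS1, an H3 pseudogene row that the choice of members leaves out, was at 2.15 and 2.13 FPKM in dormant HCC827, a mean of 2.14, and at 0.895 and 0.255 in HCC827 with DMSO. In dormant PC9 it was at 0.480 and 0.500 FPKM, below the 1.17 and 1.09 of PC9 with DMSO, and the HCC4006 groups overlapped.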

How the results depend on the processing

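None of the 57 differences of called members, in the mean or within a line, changed sign under any alternative that could test the member, and 41 to 56 kept their call under another pseudocount, no filter or another scaling. Fewer members can be tested under the 5 FPKM filter, which left 10 that rose and 2 that fell in the mean, 2 that fell in PC9 and 1 that fell in HCC4006. With no filter 2 fell in PC9 and 1 in HCC4006. A pseudocount of 0.1 left 1 that fell in PC9 and 1 whose change varied between lines. Quantile normalization gave 2 that fell in HCC827, and 7 varied between lines under it and under median of ratios scaling. Those scalings moved the median mean difference of all genes from 0.22 to 0.03 and 0.02, and that of the members from 0.76 to 0.73 and 0.74.

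Deviations between duplicates, gene by gene, correlated between DMSO and dormant cells at 0.0906, 0.0372 and 0.168 in PC9, HCC827 and HCC4006. Only the HCC4006 value was above the threshold of 0.1, and a doubted library enters it. A low correlation cannot show that same-numbered libraries share no batch, so whether they were paired remains unknown. With the replicate block 7 rose and 1 fell in PC9, 6 rose and 0 fell in HCC827 (4 at an unadjusted p under 0.05 in limma), 1 rose and 1 fell in HCC4006, and 0 varied between lines (16 unadjusted). The block changed 1 call in the mean, that of HIST2H2AC (adjusted p = 0.0534).

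Leaving out each library in turn gave 3 to 7 that fell in the mean, with 3 without either PC9 DMSO library, 3 to 16 that rose and 0 to 5 that fell in PC9, 1 to 18 and 0 to 4 in HCC827, 0 to 7 and 0 to 5 in HCC4006, and 1 to 22 that varied between lines, with 22 without HCC4006 dormant 1 and 12 without HCC4006 dormant 2. The lowest counts of rises came without PC9 DMSO 2 in PC9, without either dormant library in HCC827 and without HCC4006 DMSO 1 in HCC4006. Where 0 fell, 1 to 5 had an unadjusted p under 0.05 in limma. Leaving out HCC827 DMSO 2 and HCC4006 dormant 2 together, a choice made after the data were seen, gave 17 that rose in PC9, 9 that rose in HCC4006 and 14 that varied between lines.

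On the log2 scale, the ratio of summed FPKM in HCC827 went from 2.08 to 1.61 for all members under median of ratios scaling, from 5.64 to 5.23 for H2A (5.32 under quantile normalization), from 2.95 to 2.53 for H2B (2.79) and from 0.62 to 0.19 for H3. Under quantile normalization the PC9 ratio was 4.35 for H1 (4.70 as deposited), 4.63 for H2A (4.85) and 2.66 for H2B (2.89). The H2A ratio in HCC4006, 2.91, became 2.48 and 2.40. The cause of these shifts was not tested. Depth is unknown, so a member listed at 0 cannot be told from one too scarce to be seen.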

Other observations

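Genes beside the members that changed most were read from the RefSeq order, a choice made after the values were seen. RNF187, a ubiquitin ligase gene next to HIST3H2A, was higher in the dormant libraries of all 3 lines, with a mean difference of 1.96 ± 0.22 (SE, adjusted p = 0.000715 in limma). In HCC827, where HIST3H2A differed by 8.47, RNF187 was at 4.19 and 6.12 FPKM with DMSO and 16.6 and 17.5 in dormant cells (1.57 ± 0.39, adjusted p = 0.0511). The largest line difference of RNF187 was in HCC4006 (3.23 ± 0.39, adjusted p = 0.00219), where HIST3H2A differed by 1.14 and was not called. TRIM17, on the other side, was at 0.05 and 0.04 FPKM with DMSO and 0.04 and 0.09 in dormant HCC827 (0.03 ± 0.19). TRIM11, farther out on that side, was at 2.94 and 1.21 FPKM against 3.27 and 2.75 in HCC827 (0.44 ± 0.42, adjusted p = 0.636). Next to HIST1H1C, TRIM38 was at 4.76 and 4.20 FPKM in PC9 with DMSO and 11.5 and 9.03 in dormant PC9, where the difference was 1.03 ± 0.42 (adjusted p = 0.33) and that of HIST1H1C was 5.74. The mean difference over lines was 0.98 ± 0.24 (adjusted p = 0.0236) for TRIM38, 0.32 ± 0.23 (adjusted p = 0.349) for HFE on the other side of HIST1H1C and 1.18 ± 0.39 (adjusted p = 0.0673) for BTN3A2, farther out on that side.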
